A study of Mus musculus with 14 samples.

Results

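The cytochrome P450 genes of mouse liver were followed across 3 groups of mice. Probe sets were taken where the platform annotation gave a single symbol made of Cyp, a number, a letter and a number, with Cyp51 left out, and each gene was represented by its probe set of highest mean over the 14 arrays. This gave 61 genes from 74 probe sets, out of 22690 probe sets and 12394 genes with a single symbol on the array. A further 4 probe sets carried several P450 symbols and are not named here. The strain was C57BL/6J in all groups, with diet-induced obesity (DIO). The control groups received vehicle (n = 5) or an adenovirus carrying a short hairpin RNA against green fluorescent protein (GFP shRNA, n = 4). The treated group received an adenovirus carrying a hairpin against Jnk1, the stress kinase encoded by Mapk8 (Jnk1 shRNA, n = 5). The series title gives the knockdown as liver-specific. Their age, sex, virus dose and time of sampling are not stated in the labels. The labels do not say that each sample came from a separate mouse, so p-values cover only the spread among samples, which may be technical.

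Cytochrome P450 enzymes are membrane-bound heme proteins that insert an oxygen atom into lipophilic molecules, drawing electrons from NADPH through a reductase or, in mitochondria, through ferredoxin. In liver, families 1 to 3 mainly oxidise drugs, toxins and steroids, family 4 hydroxylates fatty acids, and a smaller set makes bile acids and handles oxysterols, steroid hormones and retinoids. Their transcription is governed by ligand-activated receptors such as CAR, PXR, PPARα and AhR, by hepatocyte factors such as HNF4α, by circadian factors and, in rodents, by the sex-dependent pattern of growth hormone.

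Values are array intensities after quantile normalization, given as log2 unless said otherwise, and differences are log2 fold changes with their standard error (SE). A gene was called where the adjusted p over the 13575 probe sets kept for testing was under 0.05. The kept probe sets were those above the 40% with the lowest mean, and the lowest kept mean corresponded to an intensity of 28.4. Of the 61 genes, 42 were kept. Mapk8 itself fell with Jnk1 shRNA by 1.31 ± 0.11 (SE) against GFP shRNA at its brightest probe set and by 1.12 at another, while the remaining one gave -0.12 ± 0.14 (adjusted p = 0.561). The bacterial spike-in controls were lower on the Jnk1 arrays than with GFP shRNA by 0.50 (exact permutation p = 0.0159), and the largest deposited intensity was 4332 to 5522 on Jnk1 arrays against 6105 to 8401 on the others, which bears on the brightest P450 probe sets. GFP shRNA array 2 had the highest deposited median, at 58.3, where the lowest array had 41.8.

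The P450 genes changed in both directions, and more of them were called than of all probe sets. Each gene is represented by its brightest probe set, whereas the share is over all kept probe sets, so they are not matched for brightness. Against GFP shRNA, 13 of the 42 kept genes rose with Jnk1 shRNA and 14 fell, which is 64.3% called, where 33.1% of all kept probe sets were called (17.3% higher and 15.8% lower). Of these, 11 changed at least 2-fold, which 4.85% of all probe sets did. The median fold change of the 42 was -0.02, beside -0.01 over all kept probe sets, and the median size of the change was 0.40, beside 0.27. Groups did not overlap for 25 of the 42 (28.1% of all kept probe sets). Because the tissue was measured in bulk, fewer cells of a type and less RNA per cell cannot be told apart in any of these values.

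Against vehicle, 14 of the 42 rose with Jnk1 shRNA and 16 fell, 71.4% in all, where 37.6% of all probe sets were called (18.9% higher and 18.7% lower). The 14 include Cyp2c39, which passed the filter through the Jnk1 group only. At least 2-fold changes numbered 15 (5.94% of all probe sets), and groups did not overlap for 25 (27.7%). GFP shRNA against vehicle gave 3 higher and 1 lower, 9.52% of the 42, where 2.58% of all probe sets were called (2.05% higher and 0.53% lower), with no overlap for 8 genes (6.3% of all probe sets) and no called change of 2-fold (0.906%). The 3 comparisons share their arrays with each other, so their values are set side by side and are not independent. Listed by calls, 14 genes were lower with Jnk1 shRNA against both control groups, namely Cyp1a2, Cyp2c23, Cyp2c37, Cyp2c50, Cyp2c54, Cyp2d13, Cyp2d26, Cyp2e1, Cyp2f2, Cyp4f13, Cyp4f14, Cyp4f15, Cyp7b1 and Cyp27a1. A further 7 were higher against both without a call for the GFP virus (Cyp2b9, Cyp2c55, Cyp2c68, Cyp2c70, Cyp4a14, Cyp17a1 and Cyp39a1). Cyp2b10, Cyp3a11 and Cyp4v3 were higher in all 3 comparisons, and 9 genes were called in none.

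**Figure D1:**
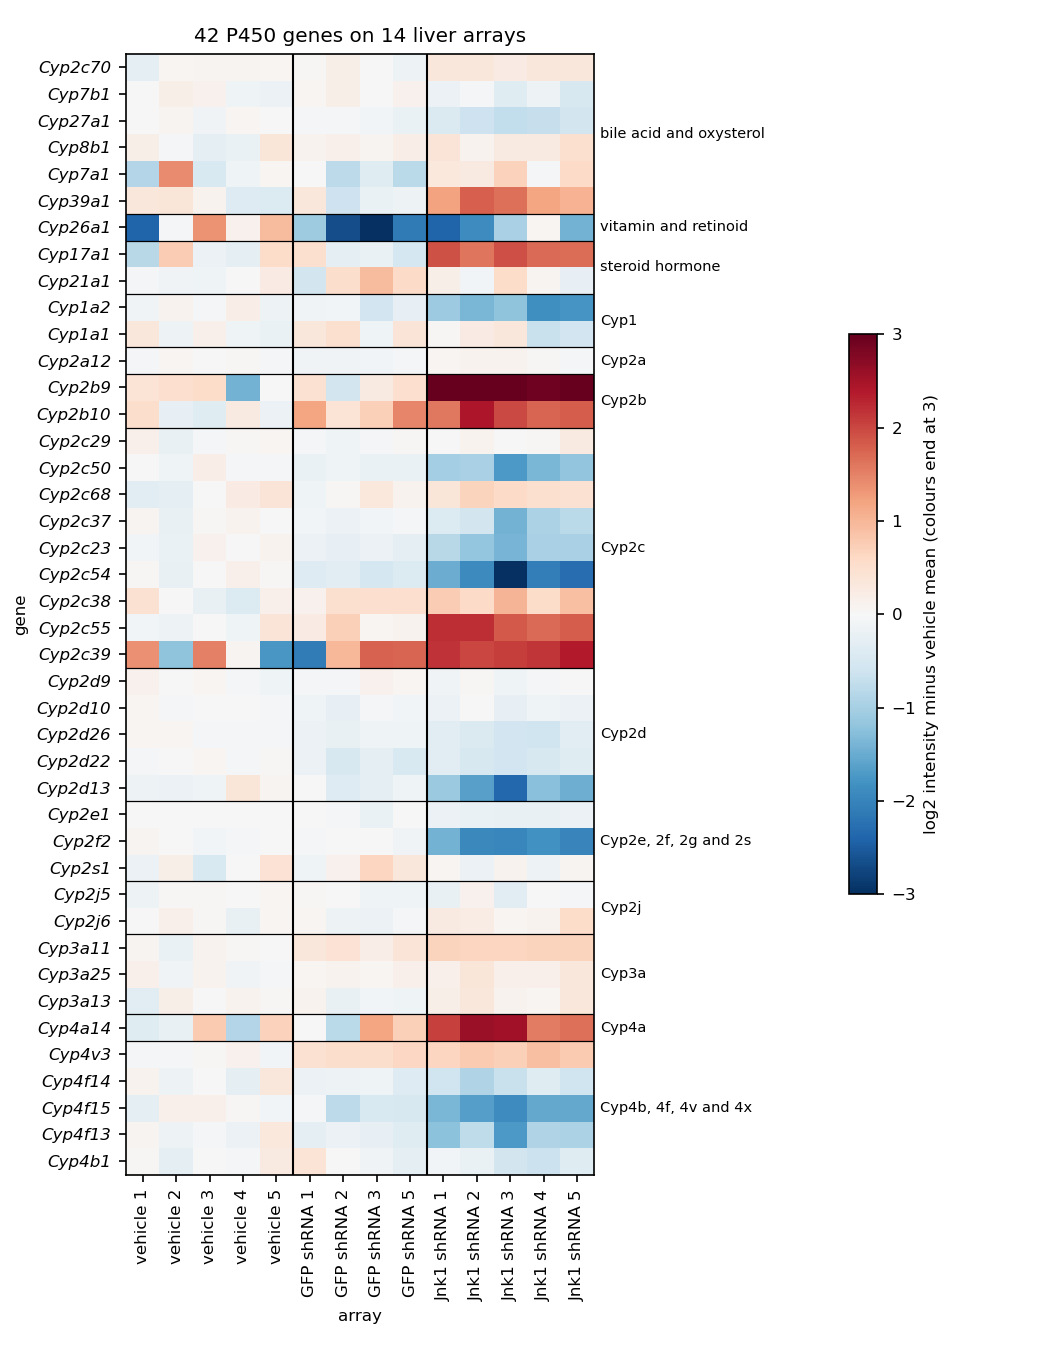
Each row is 1 of the 42 kept P450 genes, grouped by class, and each column is 1 of the 14 arrays; colour is the log2 intensity minus the vehicle mean of that gene (red higher, blue lower, colours end at 3). The 5 Jnk1 shRNA columns show blocks of both colours within single families, such as the Cyp2c genes.

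**Figure D2:**
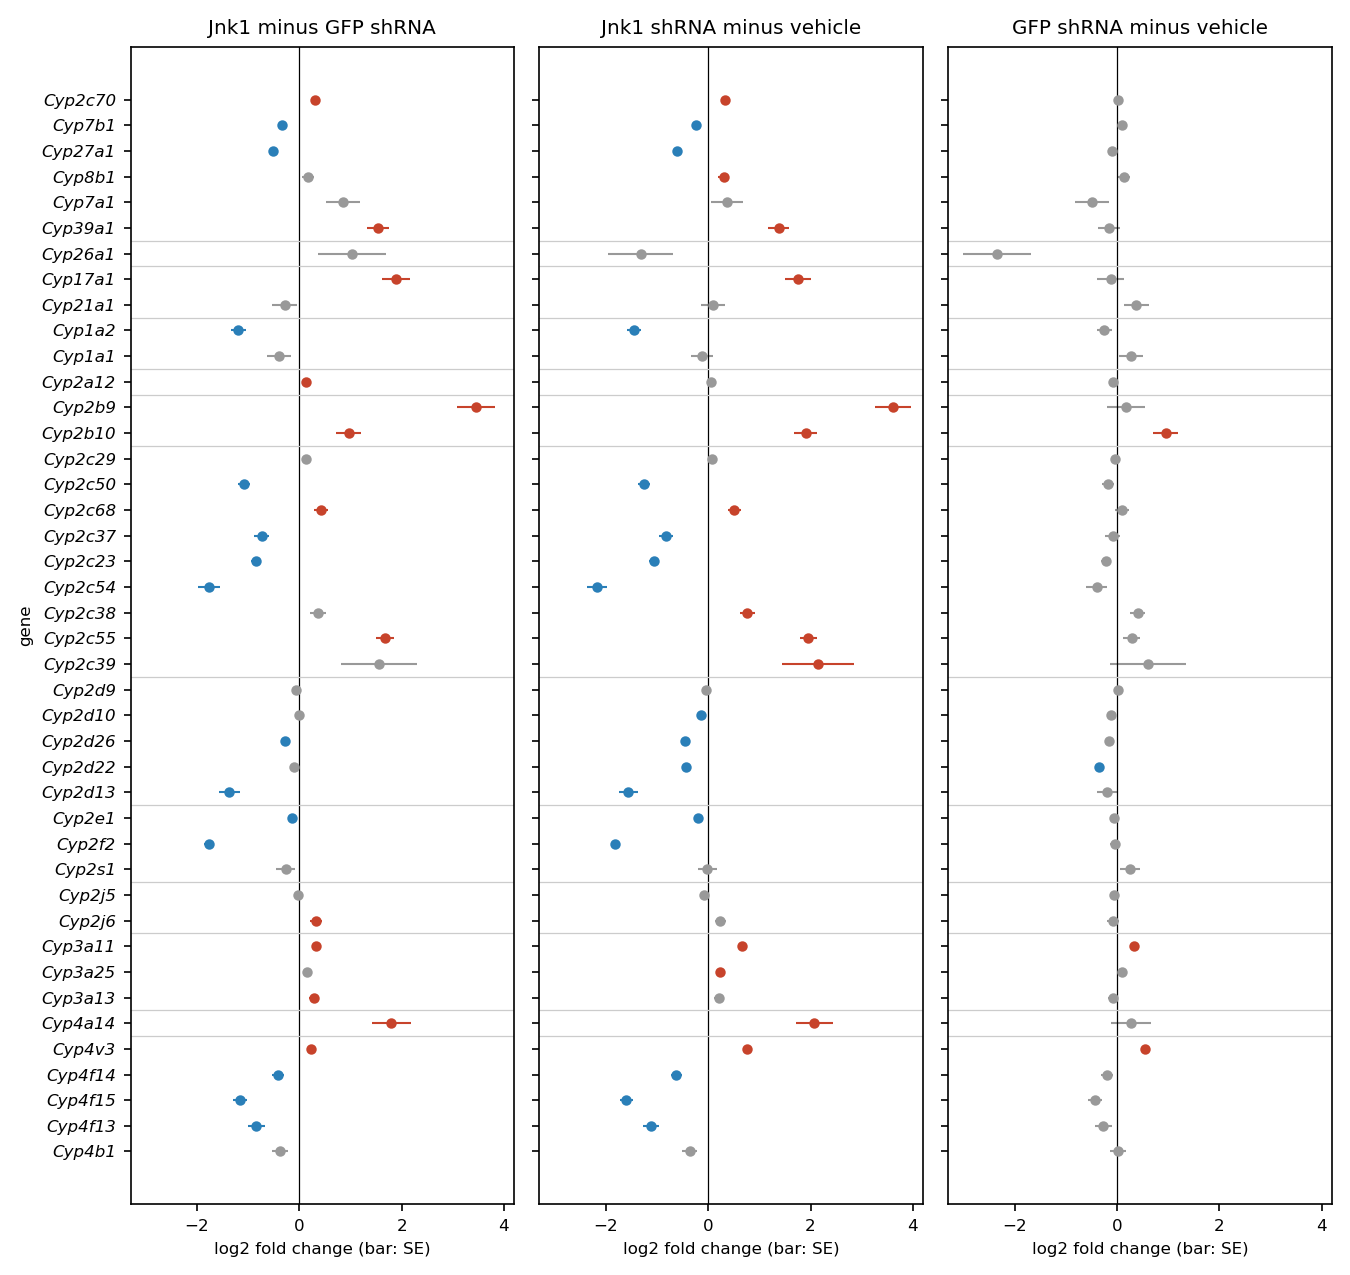
Log2 fold changes (points) with standard errors (bars) of the 42 kept P450 genes in the 3 comparisons, in red where called higher, blue where called lower and grey where not called. Called genes number 27 in the left panel, 30 in the middle panel and 4 in the right panel.

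The Cyp2b enzymes hold the largest rise among the 42 kept genes. Of 4 Cyp2b genes on the array, 2 were kept, and both rose in both Jnk1 comparisons. Cyp2b9, a drug-metabolising P450 that is more abundant in female than in male mouse liver, had log2 intensities of 6.61, 6.70, 6.77, 4.78 and 6.19 on the vehicle arrays. It read 6.66, 5.66, 6.48 and 6.72 with GFP shRNA, and 9.91, 10.33, 10.37, 9.13 and 9.39 with Jnk1 shRNA. Every Jnk1 array thus lay far above every control array. The difference was 3.45 ± 0.37 (10.9-fold, adjusted p = 4.08e-06) against GFP shRNA and 3.61 ± 0.35 (12.2-fold, adjusted p = 7.41e-07) against vehicle, while GFP shRNA and vehicle differed by 0.17 ± 0.37 (adjusted p = 0.881).

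Cyp2b10, the gene classically induced through CAR by phenobarbital, gave a graded order at its brightest probe set. Its values were 5.55, 4.76, 4.66, 5.27 and 4.83 with vehicle, 6.20, 5.43, 5.72 and 6.49 with GFP shRNA, and 6.59, 7.45, 6.99, 6.75 and 6.83 with Jnk1 shRNA. The Jnk1 arrays did not overlap either control group, whereas GFP and vehicle arrays did overlap. Jnk1 shRNA was higher by 1.91 ± 0.22 against vehicle (adjusted p = 5.74e-06) and by 0.96 ± 0.24 against GFP shRNA (adjusted p = 0.00533). GFP shRNA was higher than vehicle by 0.95 ± 0.24 (adjusted p = 0.046), a call that was lost when any of 10 single arrays was left out (0.77 to 1.03, adjusted p = 0.0536 to 0.164). The other kept Cyp2b10 probe sets gave 0.71 and 0.91 against GFP shRNA without a call, and 1.26 and 2.53 against vehicle, both called. For GFP shRNA against vehicle they gave 0.55 (adjusted p = 0.421) and 1.62 (adjusted p = 0.0574), neither called. The brightest probe set and the one that gave 0.71 are of a type that near-identical transcripts can share. Related Cyp2b messages could therefore add to their signal.

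Cyp2b13, the neighbour of Cyp2b9, stayed below the filter, with a mean intensity of 15.1 with vehicle, 21.5 with GFP shRNA and 31.2 with Jnk1 shRNA. Fitted without the filter it gave 0.54 ± 0.50 against GFP shRNA (adjusted p = 0.526) and 1.05 ± 0.47 against vehicle (adjusted p = 0.135). Cyp2b19 also stayed below it, at a mean intensity of 21.5 over all arrays. The sequences just upstream of these genes are shown because Cyp2b9 and Cyp2b13 are near copies there. They are the 250 bases before the annotated start, from RefSeq on GRCm38.p6, all on the plus strand, at chr7:26173159-26173408 for Cyp2b9, chr7:26061245-26061494 for Cyp2b13 and chr7:25897408-25897657 for Cyp2b10. Capitals mark the positions at which Cyp2b9 and Cyp2b13 differ, and in Cyp2b10 the match to the D-box.
Cyp2b9: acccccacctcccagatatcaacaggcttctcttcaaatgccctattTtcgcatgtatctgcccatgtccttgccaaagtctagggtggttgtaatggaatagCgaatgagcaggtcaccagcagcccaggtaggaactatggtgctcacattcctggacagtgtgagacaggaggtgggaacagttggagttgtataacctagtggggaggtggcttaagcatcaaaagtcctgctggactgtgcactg
Cyp2b13: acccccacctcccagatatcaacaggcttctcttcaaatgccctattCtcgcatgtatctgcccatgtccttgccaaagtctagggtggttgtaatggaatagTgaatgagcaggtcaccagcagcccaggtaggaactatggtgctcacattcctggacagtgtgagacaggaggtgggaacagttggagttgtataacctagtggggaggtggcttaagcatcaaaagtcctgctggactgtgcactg
Cyp2b10: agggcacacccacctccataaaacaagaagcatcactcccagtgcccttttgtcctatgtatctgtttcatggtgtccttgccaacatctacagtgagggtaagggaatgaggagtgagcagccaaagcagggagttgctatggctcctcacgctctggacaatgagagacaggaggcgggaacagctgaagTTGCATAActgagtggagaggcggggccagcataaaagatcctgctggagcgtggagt
Cyp2b9 and Cyp2b13 were identical at 248 of these 250 bases (99.2%) and differed only at 203 and 147 bases before the start. Cyp2b9 and Cyp2b10 shared 71.0% of aligned columns. The D-box searched was TTATGCAA on either strand, the site of the circadian factors DBP, TEF and HLF, and Cyp2b10 held it on the other strand from 58 to 51 bases before its start. So a 10.9-fold rise and a difference that did not pass the test were read from genes whose proximal sequences differ at 2 bases; whether the folds themselves differ was not tested.

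The Cyp3a enzymes, which oxidise steroids, bile acids and many drugs, rose or were not called. Cyp3a11, the main target of PXR in mouse liver, read 11.59, 11.32, 11.62, 11.54 and 11.50 with vehicle, 11.86, 11.94, 11.70 and 11.90 with GFP shRNA, and 12.16 to 12.18 on the 5 Jnk1 arrays. The 3 groups were ordered without overlap. It rose by 0.66 ± 0.06 with Jnk1 shRNA and by 0.34 ± 0.06 with GFP shRNA against vehicle (adjusted p = 2.01e-07 and 0.0045). The rise over GFP shRNA was 0.32 ± 0.06 (adjusted p = 0.000581), but 0.05 on the deposited scale (adjusted p = 0.612) and 0.22 under scaling to a common array median (adjusted p = 0.193). Under this median scaling the GFP shRNA rise over vehicle was not called either (0.19, adjusted p = 0.433). This probe set sits near the top of the scale, where the Jnk1 arrays had lower deposited maxima.

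Cyp3a25 rose against vehicle by 0.23 ± 0.06 (adjusted p = 0.00824) and gave 0.14 against GFP shRNA (adjusted p = 0.123). That call was lost on the deposited scale (0.06) and under median scaling (0.09). Cyp3a13 rose against GFP shRNA by 0.29 ± 0.10 (adjusted p = 0.0336) and lost the call when any of 5 single arrays was left out (adjusted p = 0.0627 to 0.101).

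Cyp3a44, a P450 of female mouse liver, had its mean over all arrays below the filter and so stood outside the 42, yet it had the largest fitted changes of the 61 genes in both Jnk1 comparisons. Its intensities, on the linear scale, were 3.82, 6.57, 5.97, 2.18 and 2.01 with vehicle, where 2.01 is the floor, and 15.2, 24.0, 11.8 and 8.26 with GFP shRNA. With Jnk1 shRNA they were 136, 319, 461, 182 and 200. All 5 Jnk1 arrays were above the filter level and all 9 control arrays were below it, so the size of the fold rests on control values in the dim range. A fit without the filter was among the alternatives to the main fit, and the members were chosen with earlier results of these data known. In the fit without the filter, Cyp3a44 rose by 4.10 ± 0.46 against GFP shRNA (adjusted p = 2.15e-05) and by 6.01 ± 0.43 against vehicle (adjusted p = 2.26e-07), and GFP shRNA gave 1.91 over vehicle (adjusted p = 0.0637). Cyp3a16 read between 2.01 and 24.3 on all arrays and gave 1.79 ± 0.63 against GFP shRNA in that fit (adjusted p = 0.064).

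The upstream sequences of Cyp3a44, Cyp3a16 and Cyp3a11 are shown as a set of close relatives with unlike readings. They are on the minus strand of GRCm38.p6 in RefSeq, at chr5:145805875-145806124 for Cyp3a44, chr5:145469724-145469973 for Cyp3a16 and chr5:145879855-145880104 for Cyp3a11, and are written in the direction of the gene. Capitals mark the HNF4 site searched, CAAAGTCCA on either strand.
Cyp3a44: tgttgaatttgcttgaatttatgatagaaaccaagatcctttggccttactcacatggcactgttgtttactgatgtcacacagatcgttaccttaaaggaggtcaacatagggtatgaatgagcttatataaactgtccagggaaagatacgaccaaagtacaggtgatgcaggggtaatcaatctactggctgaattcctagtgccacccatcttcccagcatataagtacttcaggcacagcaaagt
Cyp3a16: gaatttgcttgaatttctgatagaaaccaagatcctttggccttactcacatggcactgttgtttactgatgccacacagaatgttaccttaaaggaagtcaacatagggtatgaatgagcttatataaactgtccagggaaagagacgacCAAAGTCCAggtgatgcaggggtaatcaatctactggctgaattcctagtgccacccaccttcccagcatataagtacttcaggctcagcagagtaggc
Cyp3a11: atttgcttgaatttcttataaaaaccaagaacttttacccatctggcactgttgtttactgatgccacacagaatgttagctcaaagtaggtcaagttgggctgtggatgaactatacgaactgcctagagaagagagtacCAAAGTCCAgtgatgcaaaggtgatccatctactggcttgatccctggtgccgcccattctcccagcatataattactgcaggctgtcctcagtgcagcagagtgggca
Cyp3a44 shared 92.9% of aligned columns with Cyp3a16 and 72.5% with Cyp3a11. The site lay from 99 to 91 bases before the start of Cyp3a16 and from 109 to 101 before that of Cyp3a11, and its letters were not in the Cyp3a44 window.

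**Figure D3:**
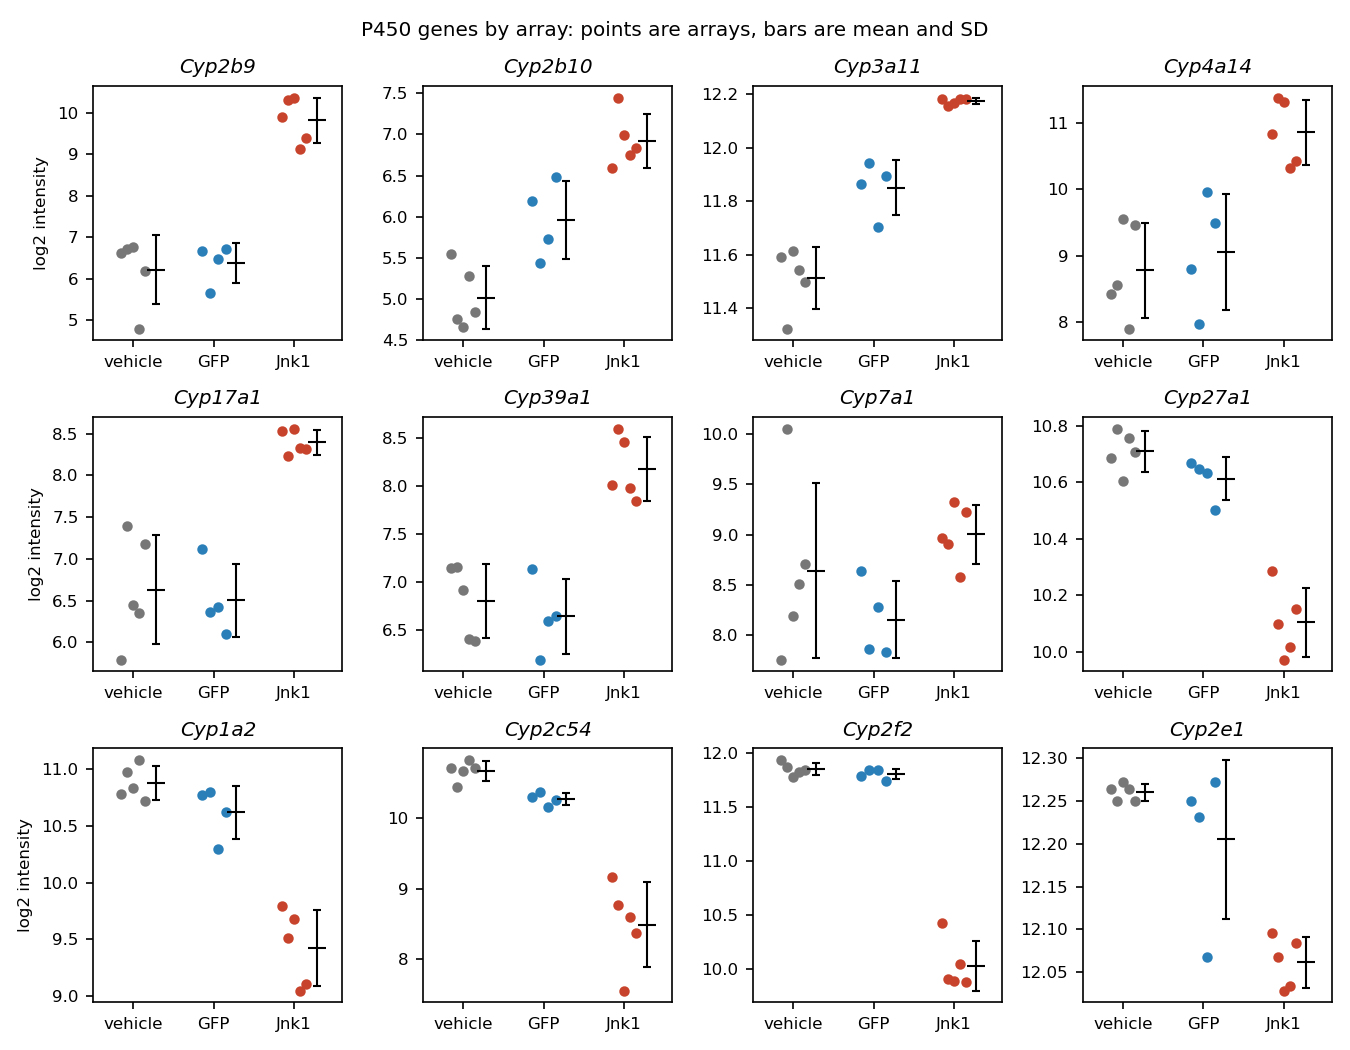
Log2 intensity (vertical axes, each with its own range) of 12 P450 genes on every array (points) with group mean and standard deviation (bars), for vehicle (n = 5), GFP shRNA (n = 4) and Jnk1 shRNA (n = 5). Jnk1 points stand above all controls for Cyp2b9, Cyp2b10, Cyp3a11, Cyp4a14, Cyp17a1 and Cyp39a1, overlap them for Cyp7a1, and stand below them for Cyp27a1, Cyp1a2, Cyp2c54 and Cyp2f2.

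The Cyp2c genes, whose products hydroxylate and epoxidise arachidonic acid and drugs, split. Of 10 on the array 9 were kept, besides Cyp2c70, which is described with the bile acid genes. Against GFP shRNA 2 rose and 4 fell, where 33.1% of all probe sets were called. Against vehicle 4 rose and 4 fell, where 37.6% were. One of the 4 that rose is Cyp2c39, which passed the filter through the Jnk1 group only, where it is high. Cyp2c54 fell most. It read 10.69, 10.43, 10.66, 10.82 and 10.70 with vehicle and 10.29, 10.36, 10.14 and 10.26 with GFP shRNA. On the Jnk1 arrays it read 9.17, 8.76, 7.56, 8.59 and 8.38. The Jnk1 arrays were all lower than the controls and were also more widely spread. It fell by 1.77 ± 0.21 against GFP shRNA (adjusted p = 1.23e-05) and by 2.17 ± 0.20 against vehicle (adjusted p = 4.71e-07).

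Cyp2c50 fell by 1.07 ± 0.12 against GFP shRNA and 1.25 ± 0.11 against vehicle, reading 11.48 to 11.81 with vehicle, 11.41 to 11.49 with GFP shRNA and 9.89 to 10.64 with Jnk1 shRNA. Cyp2c23 fell by 0.85 ± 0.10 and 1.06 ± 0.09, and Cyp2c37 by 0.74 ± 0.15 and 0.83 ± 0.14, in the same order. In these 4 genes no Jnk1 array overlapped a control array. Jnk1 shRNA array 3 was the lowest of its group in each of them.

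In the other direction, Cyp2c55 read 5.24, 5.18, 5.32, 5.21 and 5.71 with vehicle, 5.57, 6.06, 5.40 and 5.45 with GFP shRNA, and 7.56, 7.56, 7.16, 7.03 and 7.16 with Jnk1 shRNA. Its rise of 1.67 ± 0.17 against GFP shRNA (adjusted p = 2.15e-06) and 1.96 ± 0.16 against vehicle (adjusted p = 1.22e-07) was the largest among the Cyp2c genes that were measured above the filter level in all groups. Cyp2c68 rose by 0.42 ± 0.13 and 0.51 ± 0.13; the call against GFP shRNA was lost when GFP array 1, GFP array 2 or Jnk1 array 2 was left out (adjusted p = 0.0508 to 0.0763). Cyp2c38 rose against vehicle by 0.76 ± 0.14 and gave 0.36 ± 0.15 against GFP shRNA (adjusted p = 0.0787), which passed when vehicle array 1 was left out (adjusted p = 0.0424). The difference from GFP shRNA also passed on the deposited scale (0.41, adjusted p = 0.0429) and under median scaling (0.57, adjusted p = 0.0061). It passed too with the 2 groups alone (adjusted p = 0.0327) and with the replicate number as a block (adjusted p = 0.0398).

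Cyp2c39 passed the filter through the Jnk1 group only. It read 5.36, 2.78, 5.51, 4.08 and 2.25 with vehicle, 1.90, 4.98, 5.77 and 5.75 with GFP shRNA and 6.16, 6.00, 6.06, 6.13 and 6.38 with Jnk1 shRNA. The control arrays were scattered, 4 of the 9 below the filter level of 4.83, while the Jnk1 arrays were tight. The difference was 2.15 ± 0.70 against vehicle (adjusted p = 0.0233), which no longer passed without vehicle array 2 (1.85) or vehicle array 5 (1.72), and 1.55 ± 0.74 against GFP shRNA (adjusted p = 0.124). Cyp2c29, a bright Cyp2c gene, gave 0.13 and 0.08 and was not called. Cyp2c65, below the filter, gave 2.20 against GFP shRNA (adjusted p = 0.00278) and 0.48 against vehicle (adjusted p = 0.492) in the fit without it. All its arrays lay below the filter level. Their linear intensities were 13.5 to 23.8 with Jnk1 shRNA, 10.2 to 20.7 with vehicle and 2.01, the floor, to 13 with GFP shRNA.

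In the RefSeq gene order of GRCm38.p6, with at most 10 other protein-coding genes between P450 neighbours, 10 members lie in a row from Cyp2c55 to Cyp2c70. Cyp2c55, Cyp2c29, Cyp2c39, Cyp2c38 and Cyp2c68 come at the start, with log2 fold changes against GFP shRNA of 0.13 to 1.67, of which those of Cyp2c55 and Cyp2c68 were called. The adjacent Cyp2c37, Cyp2c54 and Cyp2c50 follow with -0.74, -1.77 and -1.07, all called lower, and Cyp2c70 closes the row with 0.31, called higher. Cyp2c23, which also fell, has no place in this row. Upstream, Cyp2c37 and Cyp2c50 shared 84.3% of aligned columns, and each shared 57.8% to 60.3% with Cyp2c29, Cyp2c38 and Cyp2c39. The row that holds the Cyp2b genes likewise joins Cyp2b9 at 3.45 with Cyp2f2 at -1.77, its last gene. The kept genes of a further row, Cyp4f15, Cyp4f14 and Cyp4f13, all fell. Cyp2d13 was not matched to a protein-coding RefSeq gene and has no place in these rows, so 60 of the 61 were ordered.

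**Figure D4:**
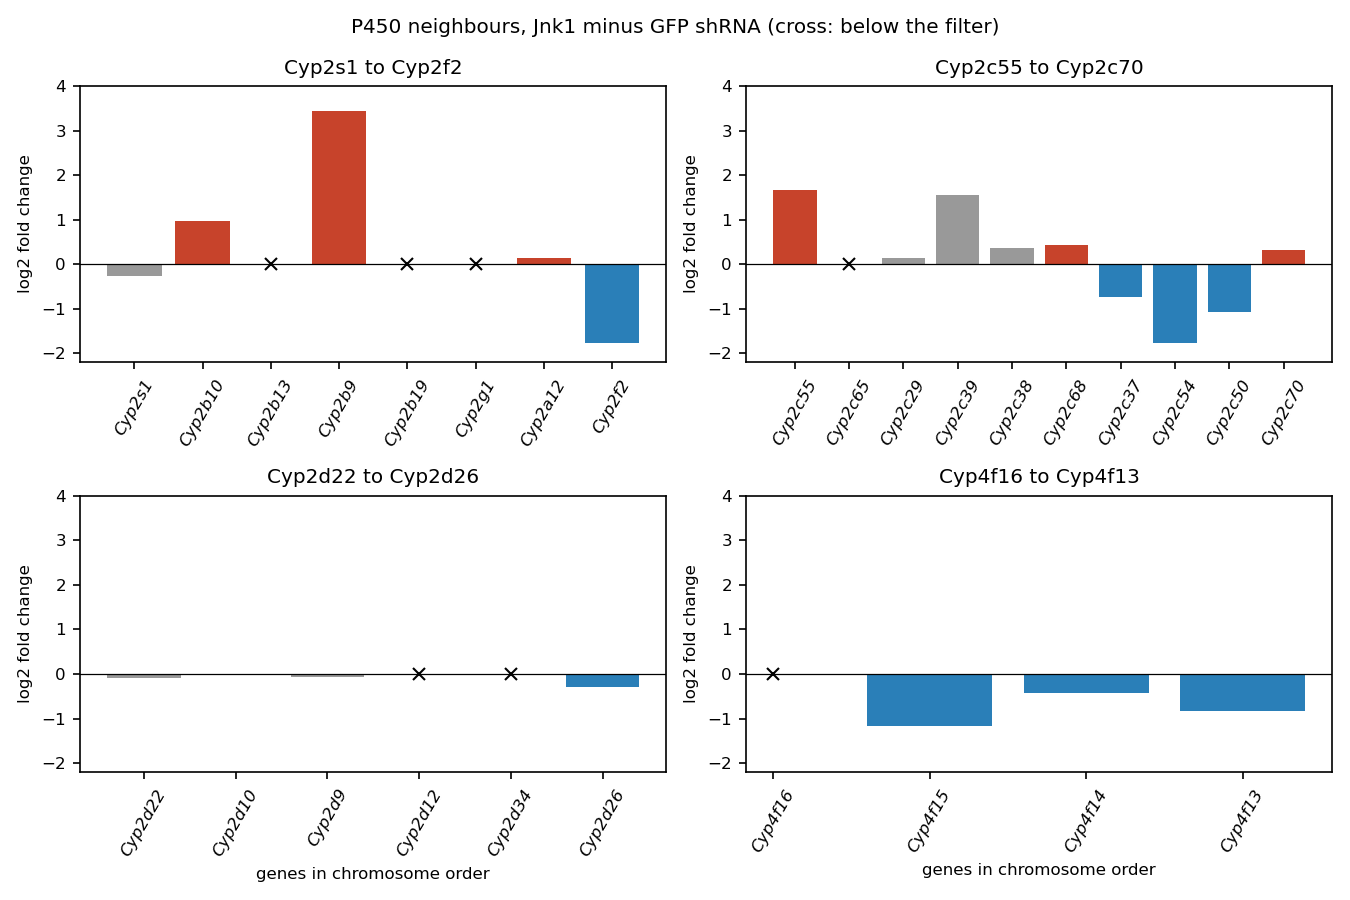
Log2 fold change of Jnk1 shRNA against GFP shRNA (bars; red called higher, blue called lower, grey not called) for P450 genes in chromosome order in 4 rows of neighbours, with a cross for genes below the filter. In the Cyp2c row 3 genes called lower stand next to each other, and Cyp2b9 and Cyp2f2 stand at opposite extremes of their row.

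Among family 4 enzymes the sole kept Cyp4a gene rose and the 3 kept Cyp4f genes fell. Cyp4a14, a PPARα target that hydroxylates medium- and long-chain fatty acids, read 8.42, 8.57, 9.56, 7.90 and 9.46 with vehicle, 8.80, 7.97, 9.97 and 9.49 with GFP shRNA and 10.83, 11.38, 11.31, 10.32 and 10.43 with Jnk1 shRNA. The control arrays spread widely, but none reached the lowest Jnk1 array. The rise was 1.80 ± 0.39 against GFP shRNA (adjusted p = 0.00204) and 2.07 ± 0.37 against vehicle (adjusted p = 0.000295). Cyp4a31 lay below the filter, at mean intensities of 8.04, 7.77 and 64.5 in vehicle, GFP shRNA and Jnk1 shRNA. Its Jnk1 arrays (54.7 to 76.9) all exceeded its control arrays (at most 17.5), and the fit without the filter gave 3.05 ± 0.62 (adjusted p = 0.00263) and 3.00 ± 0.58 (adjusted p = 0.00144). A brighter probe set that the annotation gives to several Cyp4a symbols, one of them Cyp4a31, gave -0.33 ± 0.19 against GFP shRNA without a call and -0.49 ± 0.18 against vehicle, called lower (adjusted p = 0.0442). Cyp4a12a, whose symbol ends in a copy letter and which is therefore no member, is a male-predominant Cyp4a gene and rose by 1.06 ± 0.20 against GFP shRNA and 0.99 ± 0.19 against vehicle.

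The Cyp4f enzymes hydroxylate leukotrienes and long-chain fatty acids. Cyp4f15 read 8.92, 9.36, 9.37, 9.24 and 9.13 with vehicle, 9.17, 8.43, 8.75 and 8.73 with GFP shRNA and 7.83, 7.54, 7.31, 7.67 and 7.67 with Jnk1 shRNA. Jnk1 arrays lay below all others, and it fell by 1.16 ± 0.14 against GFP shRNA (adjusted p = 1.08e-05) and 1.60 ± 0.13 against vehicle (adjusted p = 1.26e-07). Its GFP shRNA difference from vehicle, -0.44 ± 0.14 (adjusted p = 0.122), passed without GFP array 1 (-0.57, adjusted p = 0.0298). Cyp4f13 fell by 0.84 ± 0.16 and 1.11 ± 0.15, and by 0.56 against GFP shRNA where the fit held the spike-in level (adjusted p = 0.118). Cyp4f14 fell by 0.42 ± 0.12 and 0.62 ± 0.11; under median scaling the former was -0.20 (adjusted p = 0.326).

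Cyp4v3, a fatty acid hydroxylase, rose with either virus. It read 10.73 to 10.94 with vehicle, 11.27 to 11.44 with GFP shRNA and 11.46 to 11.71 with Jnk1 shRNA, so the groups were ordered without overlap. GFP shRNA was above vehicle by 0.54 ± 0.06 (adjusted p = 6.66e-05) and Jnk1 shRNA by 0.77 ± 0.06 (adjusted p = 4.62e-08). The step from GFP to Jnk1 shRNA, 0.23 ± 0.06 (adjusted p = 0.00864), was 0.06 on the deposited scale (adjusted p = 0.604), and under median scaling neither it (0.22) nor the GFP shRNA rise (0.38) passed. The other Cyp4v3 probe set gave 0.51, 1.13 and 0.62 for Jnk1 against GFP, Jnk1 against vehicle and GFP against vehicle, all called. Cyp4b1 was not called (-0.38 and -0.36, adjusted p = 0.0701 and 0.0578), and leaving out GFP array 5 or Jnk1 array 1 brought it under the threshold against GFP shRNA (adjusted p = 0.0402 to 0.0409). Against vehicle 3 single arrays did so, vehicle array 2, GFP array 1 and Jnk1 array 1 (adjusted p = 0.0309 to 0.0356). Leaving out the 60% lowest probe sets, array weights and the 2 groups alone did so as well (adjusted p = 0.0476, 0.0204 and 0.0415).

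The bile acid and oxysterol enzymes moved in different directions along the pathway. Cyp7a1, the rate-limiting enzyme of the classic pathway, read 7.76, 10.06, 8.19, 8.51 and 8.71 with vehicle, 8.64, 7.86, 8.28 and 7.84 with GFP shRNA and 8.97, 8.91, 9.33, 8.58 and 9.22 with Jnk1 shRNA. The groups overlapped, and vehicle array 2 was the highest of all 14. The difference was 0.85 ± 0.33 against GFP shRNA (adjusted p = 0.0602), 0.36 ± 0.31 against vehicle (adjusted p = 0.398) and -0.49 ± 0.33 for GFP shRNA against vehicle (adjusted p = 0.517). Without vehicle array 2 the first was 0.85 (adjusted p = 0.00478) and the one against vehicle 0.71 (adjusted p = 0.0124). Leaving out vehicle array 1 or GFP array 1 also brought the first under the threshold (adjusted p = 0.038 and 0.0433). The first was called as well on the deposited scale (0.89, adjusted p = 0.0476) and under median scaling (1.05, adjusted p = 0.0285). Array weights and a fit of the 2 groups alone did so too (adjusted p = 0.035 and 0.00375). Cyp8b1, the hydroxylase that leads to cholic acid, gave 0.17 ± 0.11 against GFP shRNA (adjusted p = 0.268) and rose by 0.30 ± 0.11 against vehicle (adjusted p = 0.0325), with overlapping groups and a call lost when any of 6 single arrays was left out (adjusted p = 0.0501 to 0.0914).

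Of the alternative pathway, Cyp27a1 and Cyp7b1 fell. Cyp27a1, the mitochondrial sterol hydroxylase that opens it, read 10.69, 10.79, 10.60, 10.76 and 10.71 with vehicle, 10.67, 10.65, 10.63 and 10.50 with GFP shRNA and 10.28, 10.10, 9.97, 10.02 and 10.15 with Jnk1 shRNA. No Jnk1 array reached a control array. It fell by 0.51 ± 0.07 against GFP shRNA (adjusted p = 2.94e-05) and 0.60 ± 0.06 against vehicle (adjusted p = 1.77e-06). Cyp7b1, the oxysterol hydroxylase of the next step, fell by 0.33 ± 0.09 (adjusted p = 0.00796) and 0.24 ± 0.08 (adjusted p = 0.0307). The call against GFP shRNA was lost under median scaling (-0.30, adjusted p = 0.105). Holding the spike-in level in the fit ended both calls (adjusted p = 0.0763 and 0.165). The fall against vehicle was lost without any of 5 single arrays (-0.24 to -0.18, adjusted p = 0.0544 to 0.0893), and the other Cyp7b1 probe set fell by 0.58 and 0.39.

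Cyp39a1, an oxysterol hydroxylase described as female-predominant in mouse liver, rose. It read 7.14, 7.16, 6.91, 6.40 and 6.38 with vehicle, 7.13, 6.18, 6.59 and 6.64 with GFP shRNA and 8.01, 8.60, 8.46, 7.98 and 7.84 with Jnk1 shRNA, again without overlap. The rise was 1.54 ± 0.22 against GFP shRNA (adjusted p = 5.06e-05) and 1.38 ± 0.20 against vehicle (adjusted p = 5.72e-05). Cyp2c70, which makes the muricholic acids of rodents, rose by 0.31 ± 0.08 and 0.32 ± 0.07 after quantile normalization, but by 0.11 (adjusted p = 0.43) and 0.06 (adjusted p = 0.67) on the deposited scale. Cyp46a1, the cholesterol hydroxylase of neurons, lay below the filter at a mean intensity of 17.7.

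Among 15 kept genes of bile acid conjugation, later synthesis and transport, 2 rose and 5 fell against GFP shRNA, where 33.1% of all probe sets were called, and 2 rose and 9 fell against vehicle, where 37.6% were. Akr1d1, the steroid reductase that follows Cyp7a1 and Cyp8b1, rose by 1.18 ± 0.07. Slc27a5 and Baat, which conjugate bile acids, fell by 0.66 ± 0.07 and 0.54 ± 0.09, and Abcb11, the canalicular bile salt pump, by 0.43 ± 0.11, all against GFP shRNA.

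Of the 4 steroid hormone genes 2 were kept. Cyp17a1, the steroid hydroxylase and lyase, which is female-predominant in mouse liver, read 5.79, 7.40, 6.44, 6.35 and 7.17 with vehicle, 7.12, 6.36, 6.42 and 6.10 with GFP shRNA and 8.53, 8.23, 8.56, 8.33 and 8.31 with Jnk1 shRNA. All Jnk1 arrays were higher than all controls and lay closer together. It rose by 1.89 ± 0.27 against GFP shRNA (3.71-fold, adjusted p = 5.48e-05) and by 1.76 ± 0.25 against vehicle (adjusted p = 4.19e-05). Cyp21a1, the adrenal steroid hydroxylase, was not called, although it gave -0.60 (adjusted p = 0.0259) against GFP shRNA without GFP array 1. Cyp11a1, which starts steroid synthesis in steroidogenic glands, was at the floor on all 14 arrays, and Cyp11b2 had a mean intensity of 17.8.

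Cyp26a1, which degrades retinoic acid, varied widely within every group. It read 4.56, 6.93, 8.31, 7.09 and 7.90 with vehicle, 5.89, 4.30, 3.39 and 4.84 with GFP shRNA and 4.55, 5.07, 5.98, 7.02 and 5.54 with Jnk1 shRNA. The groups overlapped: vehicle arrays 1 and 2 lay below the highest Jnk1 array, and vehicle array 1 also below 2 of the GFP arrays. GFP shRNA against vehicle was -2.35 ± 0.66 (adjusted p = 0.0805) and Jnk1 shRNA against vehicle -1.32 ± 0.63 (adjusted p = 0.111). Without vehicle array 1 these were -2.95 (adjusted p = 0.00507) and -1.92 (adjusted p = 0.00756), and without GFP array 1 the former was -2.78 (adjusted p = 0.0453). Cyp24a1 and Cyp27b1, the vitamin D enzymes of kidney, lay below the filter at mean intensities of 13.8 and 4.24.

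The P450 genes of the drug-metabolising families outside Cyp2b, Cyp2c and Cyp3a mostly fell or were not called. Cyp1a2, an AhR target that oxidises caffeine and aromatic amines, read 10.78, 10.97, 10.83, 11.08 and 10.72 with vehicle, 10.78, 10.80, 10.29 and 10.62 with GFP shRNA and 9.79, 9.51, 9.68, 9.05 and 9.11 with Jnk1 shRNA. Jnk1 arrays were below every control array, by 1.19 ± 0.15 on average against GFP shRNA (adjusted p = 1.49e-05) and 1.45 ± 0.14 against vehicle (adjusted p = 6.76e-07). Cyp1a1, its inducible relative, was dim and not called (-0.39 and -0.12), and Cyp1b1 lay below the filter.

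Cyp2f2, the enzyme that bioactivates naphthalene, had the smallest p of the 42 genes in both Jnk1 comparisons. It read 11.94, 11.87, 11.78, 11.83 and 11.85 with vehicle, 11.79, 11.85, 11.84 and 11.75 with GFP shRNA and 10.43, 9.91, 9.89, 10.05 and 9.88 with Jnk1 shRNA. The control groups were tight and interleaved, and the Jnk1 arrays lay well under them. It fell by 1.77 ± 0.09 against GFP shRNA (3.42-fold lower, adjusted p = 1.84e-09) and 1.82 ± 0.08 against vehicle (3.53-fold lower, adjusted p = 4.06e-10). Cyp2e1, which oxidises ethanol and acetaminophen, fell by 0.14 ± 0.04 (adjusted p = 0.0173) and 0.20 ± 0.04 (adjusted p = 0.00103) at the top of the scale, and by 0.42 and 0.51 on the deposited scale. Its call against GFP shRNA was lost without GFP array 1 or GFP array 5 (-0.13 and -0.12, adjusted p = 0.054 and 0.0656). Cyp2s1 was not called, and Cyp2g1, an olfactory P450, lay below the filter.

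Of 5 kept Cyp2d genes 2 fell against GFP shRNA, where 33.1% of all probe sets were called and 15.8% were lower. Against vehicle 4 fell, where 37.6% were called and 18.7% were lower. Cyp2d13 fell most, from 8.70, 8.67, 8.70, 9.20 and 8.92 with vehicle and 8.83, 8.46, 8.56 and 8.71 with GFP shRNA to 7.73, 7.20, 6.47, 7.58 and 7.38 with Jnk1 shRNA. The groups did not overlap, and the fall was 1.37 ± 0.20 against GFP shRNA (adjusted p = 6.69e-05) and 1.56 ± 0.19 against vehicle (adjusted p = 6.4e-06), with 1.12 and 1.25 at its other probe set. Cyp2d26 fell by 0.28 ± 0.06 and 0.45 ± 0.06, though the former did not pass under median scaling (-0.21, adjusted p = 0.217). Cyp2d10 fell against vehicle by 0.14 ± 0.05 (adjusted p = 0.0391), a call lost without any of 7 single arrays (adjusted p = 0.0566 to 0.0974). Cyp2d9, a male-predominant gene, was not called, at -0.07 and -0.05, but was called lower on the deposited scale (-0.26 in both, adjusted p = 0.0165 and 0.00885).

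The probe sets of Cyp2d22 differed. The brighter read 9.38 to 9.51 with vehicle, 8.97 to 9.26 with GFP shRNA and 8.86 to 9.12 with Jnk1 shRNA, so that both viruses were lower than vehicle, by 0.35 ± 0.08 (adjusted p = 0.0234) and 0.44 ± 0.07 (adjusted p = 0.000161), while Jnk1 against GFP shRNA gave -0.10 ± 0.08 (adjusted p = 0.354). The other fell by 0.58 against GFP shRNA and by 0.97 against vehicle. The GFP shRNA call was lost without any of 4 single arrays, vehicle array 3 or 5 and GFP array 2 or 5 (-0.33 to -0.30, adjusted p = 0.0627 to 0.0966). Cyp2d34 and Cyp2d12 lay below the filter.

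Cyp2a12 rose against GFP shRNA by 0.13 ± 0.05 (adjusted p = 0.0346) with overlapping groups; without any of 7 single arrays the call was lost (0.12 to 0.14, adjusted p = 0.0503 to 0.0762). Cyp2j6 rose by 0.32 ± 0.11 (adjusted p = 0.0373), lost without any of 6 (0.25 to 0.33, adjusted p = 0.053 to 0.0987). Cyp2j5, an arachidonic acid epoxygenase, was not called, though on the deposited scale it was lower than vehicle (-0.24, adjusted p = 0.0425). Cyp2j9 and Cyp2j13 lay below the filter.

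At the filter itself, Cyp2c39 and Cyp26a1 were kept although the means of 2 groups and of 1 group, respectively, lay under its level, and the other 40 kept genes lay above it in all 3 groups. Just outside it were Cyp4f16, at a mean intensity of 27.0, and Cyp2d34, at 26.9. Of the 19 genes below the filter, 3 rose against GFP shRNA in the fit without it, Cyp3a44, Cyp4a31 and Cyp2c65, where 18.6% of all 22626 probe sets were called. Against vehicle the 3 that rose were Cyp3a44, Cyp4a31 and Cyp4f16 (1.33 ± 0.38, adjusted p = 0.0208), where 22.5% were called. None fell, and GFP shRNA against vehicle gave 0 of 19 in limma, where 1.22% were called and the smallest adjusted p was 0.0637, for Cyp3a44. Cyp4f18, at a mean intensity of 2.31, was at the floor on 6 arrays.

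**Figure D5:**
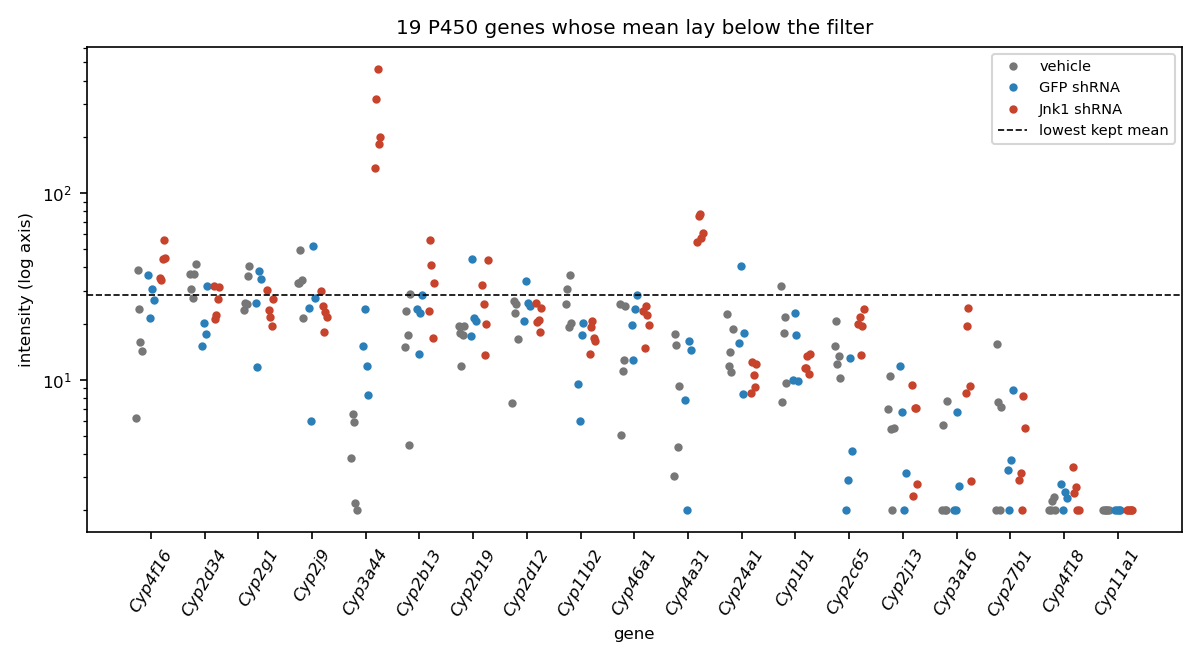
Intensity on a log axis of the 19 P450 genes below the filter, 1 point per array, by group; the dashed line is the lowest kept mean of 28.4. The 5 Jnk1 points of Cyp3a44 and of Cyp4a31 stand above the line and apart from all control points, while most other genes show no such gap.

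The receptors and factors that control P450 genes were read from a list of 31, of which 27 were kept. Against GFP shRNA 4 rose and 9 fell, where 33.1% of all probe sets were called, and against vehicle 1 rose and 10 fell, where 37.6% were. Nr1i3, which encodes CAR, fell by 1.39 ± 0.17 against GFP shRNA and 1.84 ± 0.16 against vehicle. The activity of CAR was not measured, and any link to the Cyp2b genes was not tested. Nr1i2 (PXR) and Ppara were not called in any comparison at their brightest probe sets (0.55 ± 0.53 and 0.14 ± 0.25 against GFP shRNA), while another Nr1i2 probe set fell by 0.60 against vehicle (adjusted p = 0.0334). Nr0b2, which encodes SHP, the repressor of bile acid synthesis, rose by 2.20 ± 0.48 and 2.77 ± 0.45, and Nr1h4, its activator FXR, by 0.43 ± 0.11 against GFP shRNA (0.26 ± 0.10 against vehicle, adjusted p = 0.0573).

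Dbp, the circadian activator that binds the D-box, fell by 2.03 ± 0.38 against GFP shRNA and fell by 2.85 ± 0.35 against vehicle, its relative Tef by 0.72 ± 0.18 and 1.18 ± 0.17, and the clock repressor Nr1d2 by 1.00 ± 0.10 and 1.16 ± 0.10. Hnf4a fell by 0.52 ± 0.07 and 0.58 ± 0.07 at its brightest probe set, but the other gave 0.08 and 0.04, and under median scaling the fall against GFP shRNA was not called (adjusted p = 0.0819). Bcl6, a repressor with male-predominant action in liver, fell by 1.23 ± 0.29 and 1.35 ± 0.28, and Ghr, the growth hormone receptor, by 0.36 ± 0.07 and 0.31 ± 0.07. The Tef call against GFP shRNA was lost under median scaling (-0.52, adjusted p = 0.0753) and at its second probe set (-0.45, adjusted p = 0.56), and the Ghr call under median scaling (adjusted p = 0.129). With the spike-in level in the fit, the calls against GFP shRNA of Ghr (adjusted p = 0.0744), Bcl6 (0.0861), Nr0b2 (0.0827) and Nr1h4 (0.1) were lost, and so was that of Ghr against vehicle (0.129). Cux2, the female-specific repressor, was not kept.

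Among the redox partners and heme enzymes, 13 were kept; 2 rose and 2 fell against GFP shRNA, and 1 rose and 3 fell against vehicle, close to the 33.1% and 37.6% called of all probe sets. Fdx1, the ferredoxin that feeds electrons to mitochondrial P450s such as Cyp27a1, fell by 0.63 ± 0.08 and 0.44 ± 0.07. Cyb5r3, the cytochrome b5 reductase, rose by 0.26 ± 0.07 and 0.30 ± 0.07, which was not called on the deposited scale (0.15 and 0.13) or under median scaling (0.31 and 0.16), nor against GFP shRNA with the spike-in level in the fit (0.27, adjusted p = 0.101). Alas1, the rate-limiting enzyme of heme synthesis, gave -0.02 ± 0.31 and -0.16 ± 0.29.

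By sex bias as known from mouse liver, a list of 12 female-predominant P450 genes had 7 on the array and 4 kept (Cyp2b9, Cyp2b10, Cyp17a1 and Cyp39a1), all of which rose in both Jnk1 comparisons, with medians of 1.72 and 1.84. The list was drawn up with these results known, so it is no independent evidence. Of 3 kept male-predominant P450 genes, Cyp7b1 fell, Cyp4a12a rose and Cyp2d9 was not called. Among male-predominant genes that are not P450s, 7 of 10 fell and 1 rose in each Jnk1 comparison, such as Hsd3b5, a steroid dehydrogenase, by 2.01 ± 0.35 against GFP shRNA. Among the female-predominant ones 2 of 6 rose and 1 fell. Of all kept probe sets, 17.3% were called higher and 15.8% lower against GFP shRNA, and 18.9% and 18.7% against vehicle. The sex of the mice is not given in the labels.

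Markers of liver cell types were read beside the share of all probe sets called. For Jnk1 against GFP shRNA this was 33.1% in either direction and 15.8% lower, and against vehicle 18.7% were lower. Of 12 mature hepatocyte markers 3 fell against GFP shRNA and 5 against vehicle. Their summed intensity was 53681 to 55878 on Jnk1 arrays, 56288 to 58030 with GFP shRNA and 55466 to 59886 with vehicle. Of 11 kept macrophage markers 7 fell against GFP shRNA (summed 3268 to 4048 against 5505 to 6331, and 3237 to 5783 with vehicle), as did 4 of 6 stellate cell markers and 3 of 9 endothelial markers. Against vehicle, 4 macrophage, 2 stellate cell and 5 endothelial markers fell. Of 8 T and NK cell markers 1 was kept, and it was higher than vehicle with either virus; the 8 summed to 186 to 228 with Jnk1 shRNA, 113 to 197 with GFP shRNA and 94.6 to 155 with vehicle. None of the 5 cholangiocyte markers was kept. Of the markers of the pericentral zone, where Cyp2e1 and Cyp1a2 are normally strongest, 4 of 7 fell and 1 rose against GFP shRNA. Against vehicle 5 of these fell and 1 rose. The pericentral sum was 5509 to 6633 with Jnk1 shRNA, 7399 to 7589 with GFP shRNA and 7078 to 8212 with vehicle. Of 5 periportal markers, the zone of Cyp2f2, 1 fell against GFP shRNA and 3 against vehicle, and their sum was 6124 to 6636 with Jnk1 shRNA, 6689 to 7686 with GFP shRNA and 7379 to 7888 with vehicle. The Jnk1 arrays thus had the lowest sums for both zones, without overlap. The part of these shifts, and of the spike-in difference, in the P450 results was not tested.

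Upstream sequence was found for 45 of the 61 genes. The HNF4 site was in 6 of the 45 (13.3%), where 0.384% of the 32851 promoters of the same length in the table hold it. They are Cyp2c65, Cyp2c68, Cyp2c70, Cyp3a11, Cyp3a16 and Cyp8b1, and related copies share it. The D-box was in 3 (6.67%, against 0.694%), Cyp2b10, Cyp2b19 and Cyp4f14, of which Cyp2b10 rose and Cyp4f14 fell. The TATAAA letters were in 17 (37.8%, against 12.4%), the xenobiotic response core GCGTG in 10 (22.2%, against 28.2%) and TTCNNNGAA, read by STAT factors, in 2 (4.44%, against 7.02%). All were searched on both strands, and a match shows the letters, not a bound site. The 45 genes had 52 promoter windows, and a gene counted if any of its windows held the letters. The share of all promoters counted windows, so these shares are in unlike units. Cyp4f14 has several windows, and not all of them hold the D-box. The D-box variant TTATGTAA was in 0 of 45 and in 0.819% of all promoters.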

How the data were processed

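The authors deposited probe set intensities on a linear scale, already scaled to a common trimmed mean (150.05 to 150.06 with 2% of probe sets removed at either end, tested on the file); the software is not given in the sources used here. Per the labels' protocols, total liver RNA was column-extracted and labelled with biotin. Array medians spanned 0.48 on the log2 scale, so arrays were quantile normalized, floored at the 5th percentile (intensity 2.01) and log2 transformed. The 64 control probe sets and the 40% of the other 22626 with the lowest mean were left out. limma 3.58.1 (R 4.3.3) fitted 3 group means to all 14 arrays with a variance trend on intensity; Benjamini-Hochberg adjustment ran over 13575 probe sets. Upstream sequences were compared with Biopython 1.88 by global alignment. The fit was tested on simulated data. The number of arrays limits the precision.

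The members and gene lists were chosen with earlier results of these data known. Named genes were all kept bile acid, Cyp2b and Cyp4a genes, the 12 called members with the largest change in each comparison, members at the filter, below it or with discordant probe sets, and up to 4 called genes per list. Symbols came from the platform annotation, and 60 of 61 matched a protein-coding RefSeq gene of GRCm38.p6. Replicate numbers did not pair the arrays (correlations of deviations -0.235 to 0.121).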

Additional observations from a re-analysis of the deposited data

Results flagged for a closer look

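In 8 of 126 sets of 4 or 5 arrays (42 genes in 3 groups), 1 array stood apart from the rest of its group by Dixon's criterion, which chance alone meets in about 5% of sets. Values are log2 intensities. Vehicle array 1 read 11.17 for Cyp2c70, where the other vehicle arrays read 11.53 to 11.55, and 11.09 for Cyp2j5, where they read 11.24 to 11.29. Vehicle array 4 read 4.78 for Cyp2b9, against 6.19 to 6.77, and vehicle array 5 read 5.71 for Cyp2c55, against 5.18 to 5.32. GFP shRNA array 2 read 11.49 for Cyp2c50, against 11.41 to 11.42. GFP shRNA array 5 read 9.40 for Cyp4f14, against 9.62 to 9.66, and GFP shRNA array 1 read 8.28 for Cyp2c38, against 8.62 to 8.65. Jnk1 shRNA array 3 read 11.72 for Cyp2c70, against 11.80 to 11.81.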

How the results depend on the processing

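With every alternative tried, 12 of the 27 P450 calls of Jnk1 against GFP shRNA and 20 of the 30 of Jnk1 shRNA against vehicle stayed on the same side of the threshold, and 0 of the 4 of GFP shRNA against vehicle did. Leaving out 1 array at a time gave 9 to 15 genes higher and 14 to 15 lower for Jnk1 against GFP shRNA, 13 to 14 and 14 to 17 for Jnk1 shRNA against vehicle, and 2 to 3 and 0 to 3 for GFP shRNA against vehicle; probe sets called ranged from 3862 to 4574, 4579 to 5475 and 198 to 381. For GFP shRNA against vehicle, arrays scaled to the same median gave 1 gene higher and 0 lower, no intensity trend 0 lower, array weights 2 lower, and the 2 groups alone 2 lower with 209 probe sets. With that same scaling, 72.3% of the calls of Jnk1 against GFP shRNA were higher, against 52.3% in the main result. The spike-in level as a covariate gave 2349 probe sets for Jnk1 against GFP shRNA, with 9 P450 genes higher and 11 lower. For Jnk1 shRNA against vehicle it gave 3013, with 11 higher and 14 lower. With Jnk1 array 2, whose spike-in level was like the controls', as the sole Jnk1 array (chosen after seeing the data, the lone array assumed to vary like the other groups), 1342 and 1919 probe sets were called, and 4 and 8 P450 genes were higher. On the deposited scale Cyp2a12 gave -0.0027 and Pgrmc1 -0.079 for Jnk1 against GFP shRNA. The other probe set of Hnf4a gave 0.077 against GFP shRNA and 0.039 against vehicle, and the third of Mapk8 -0.12 (adjusted p = 0.561). Among P450 calls of Jnk1 against GFP shRNA, median scaling ended those of Cyp2e1, Cyp3a11, Cyp2c70, Cyp2a12, Cyp7b1, Cyp2d26, Cyp4v3 and Cyp4f14, and the spike-in covariate those of Cyp2e1, Cyp2c70, Cyp2a12, Cyp7b1, Cyp3a13, Cyp2j6 and Cyp4f13. Against vehicle they ended those of Cyp2c70, Cyp2d10, Cyp3a25, Cyp2c68 and Cyp8b1, and of Cyp2c70, Cyp7b1, Cyp2d10, Cyp8b1 and Cyp2c39, respectively. The deposited scale ended the calls against GFP shRNA of Cyp3a11, Cyp2a12, Cyp2c70, Cyp4v3, Cyp2c68 and Cyp2j6 and gave calls of Cyp2d9, Cyp7a1 and Cyp2c38. Against vehicle it ended those of Cyp2c70, Cyp3a25, Cyp2c68 and Cyp8b1 and gave those of Cyp2d9, Cyp2j5 and Cyp2j6. Median scaling gave calls of Cyp7a1 and Cyp2c38 against GFP shRNA. The cause of these shifts was not tested.

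The replicate number as a block, although the numbers do not pair the arrays, gave 4101 probe sets with 12 P450 genes higher and 14 lower for Jnk1 against GFP shRNA, 4825 with 14 and 15 for Jnk1 shRNA against vehicle, and 247 with 2 and 0 for GFP shRNA against vehicle.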
